A study of Caenorhabditis elegans with 2 samples.

Results

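Closely spaced genes on the same strand of the Caenorhabditis elegans genome were examined for ChIP-seq peaks of the eGFP-tagged mRNA export adaptor ALY-2. A peak was counted when its summit lay in the gap between 2 adjacent protein-coding genes of the same strand, from the 3′ end of the first gene to the 5′ end of the second, and when that gap was 1 to 500 bp long. Such a gap is called a tandem gap here, and the genes on its sides are the first and the second gene in the direction of transcription. Of 15675 peaks in the authors' pooled list, 462 met this definition, in 454 of the 3526 tandem gaps of the genome, and 8 gaps held more than 1 summit. Gaps were taken from the gene models alone, so nothing in the definition used measured signal or an operon annotation.

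ChIP-seq, in which DNA bound by a protein is pulled down and sequenced, was done on whole L1 larvae, the first larval stage, of strain OP217. Its genotype is given as unc-119(ed3) III; ddIs172, where ddIs172 is an insertion that expresses the tagged aly-2, and each sample pooled males and females. The sources used here do not state the promoter or the copy number of the insertion, and the labels name the antibody's target only as aly-2 in one field and as eGFP-aly-2 in another. The 2 samples are biological replicates of 1 group with library fragments of 150 to 350 bp, so there was no comparison between conditions, and no test was made because regions of the same libraries are not replicates. Each peak carries a signal given by the authors on a scale that is not stated, so signals were compared within a list only. The authors' final list held 1446 peaks, which were exactly the 1446 pooled peaks of highest signal, and a summit of one of these is called a final summit. A replicate's counterpart to the final list was the same number of its own peaks of highest signal. The depth of the libraries is unknown.

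In C. elegans many tandem genes lie in operons, in which a promoter ahead of the first gene makes a transcript that covers several genes. That transcript is cut into mRNAs by 3′ end formation of the upstream gene and by trans-splicing, which joins a short leader to the downstream gene, usually SL2 for downstream genes of an operon and SL1 for genes with a start of their own. The acceptor site for the leader lies just ahead of the downstream coding sequence. ALY-2 belongs to the ALY/REF family, which binds mRNA while it is made and processed and hands it to the export receptor.

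The gaps below carry the main contrasts of the results and are printed 5′ to 3′ on the strand of the genes, from the RefSeq sequence of the WBcel235 (ce11) assembly. Capitals mark the word TTNCAG, the core of a splice acceptor, where it lay in the last 20 bp before the annotated 5′ end of the second gene. The word was searched on the strand of the genes only, TTTCAG is one of its forms, and a match is a description of the letters, not evidence of a site in use. The highest signals of all tandem gaps came from the first 3 sequences, whose first genes encode isocitrate lyase/malate synthase of the glyoxylate cycle (icl-1) and the cytosolic chaperones HSP-90 and HSP-110, and in none of them did the word lie ahead of the second gene. They are 200 bp around the summit between icl-1 and fbxb-72 (chrV:724089-724288, minus strand), the whole gap after hsp-90 (chrV:14688546-14688615, plus strand) and the first 150 bp after hsp-110 (chrIII:8443760-8443909, minus strand).
icl-1/fbxb-72: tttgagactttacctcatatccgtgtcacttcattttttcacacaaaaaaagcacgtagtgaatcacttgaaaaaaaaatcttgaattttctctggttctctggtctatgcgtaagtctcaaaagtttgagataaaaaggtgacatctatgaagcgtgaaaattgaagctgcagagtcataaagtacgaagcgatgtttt
hsp-90/C47E8.11: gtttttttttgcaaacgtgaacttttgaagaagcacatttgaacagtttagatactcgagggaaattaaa
hsp-110/ufbp-1: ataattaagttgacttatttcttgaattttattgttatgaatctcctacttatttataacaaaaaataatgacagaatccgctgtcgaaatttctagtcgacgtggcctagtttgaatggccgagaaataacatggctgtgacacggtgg
Gaps longer than 200 bp with a final summit and the acceptor word are represented by 3 examples that had no listed peak at the first gene's 5′ end. These are the 250 bp ahead of dld-1, which encodes dihydrolipoamide dehydrogenase and has an annotated ncRNA gene under the summit (chrIV:14464267-14464516, plus strand), the 250 bp ahead of eelo-2 (chrIV:17249881-17250130, plus strand) and the whole gap between C34C12.2 and C34C12.8 (chrIII:3460112-3460405, plus strand).
nspg-9/dld-1: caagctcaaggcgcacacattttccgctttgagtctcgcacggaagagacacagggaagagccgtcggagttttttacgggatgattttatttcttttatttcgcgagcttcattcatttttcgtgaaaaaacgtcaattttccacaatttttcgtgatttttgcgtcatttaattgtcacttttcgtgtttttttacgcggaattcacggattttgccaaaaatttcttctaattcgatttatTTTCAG
ZK550.2/eelo-2: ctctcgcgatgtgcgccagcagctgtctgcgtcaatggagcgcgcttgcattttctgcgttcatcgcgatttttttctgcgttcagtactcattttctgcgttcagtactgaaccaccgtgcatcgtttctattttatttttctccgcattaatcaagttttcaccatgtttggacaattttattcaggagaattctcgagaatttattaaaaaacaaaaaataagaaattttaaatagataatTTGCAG
C34C12.2/C34C12.8: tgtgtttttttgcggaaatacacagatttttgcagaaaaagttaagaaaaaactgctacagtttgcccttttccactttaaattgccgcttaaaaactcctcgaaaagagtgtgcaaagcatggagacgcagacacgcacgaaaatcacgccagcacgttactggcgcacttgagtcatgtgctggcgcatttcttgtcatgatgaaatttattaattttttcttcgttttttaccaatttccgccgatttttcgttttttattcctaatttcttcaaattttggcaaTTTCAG
The last 3 are short gaps without the word. The gap between C55A6.11 and pafo-1, a gene of the PAF1 complex, held a final summit (chrV:11521555-11521702, plus strand), while the gaps after citk-2 (chrII:5003807-5003959, plus strand) and F55A11.1 (chrV:11763050-11763138, minus strand) held weak peaks next to final summits at the first gene's 5′ end.
C55A6.11/pafo-1: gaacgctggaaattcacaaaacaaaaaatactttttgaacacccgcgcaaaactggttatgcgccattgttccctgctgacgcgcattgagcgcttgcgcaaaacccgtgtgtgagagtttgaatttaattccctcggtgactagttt
citk-2/F59A6.10: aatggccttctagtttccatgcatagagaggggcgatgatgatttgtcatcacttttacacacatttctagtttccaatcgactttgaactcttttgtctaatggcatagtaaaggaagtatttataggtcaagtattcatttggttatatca
F55A11.1/T04F3.4: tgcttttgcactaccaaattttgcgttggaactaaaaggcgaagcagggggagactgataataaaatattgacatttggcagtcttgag

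Of the 462 summits, 129 were final (27.9%, exact 95% interval 23.9 to 32.3%), against 9.22% of all pooled summits. Other short gaps also stood above that share, with 22.8% of summits final in convergent gaps (interval 15.9 to 31.1%) and 41.8% in divergent gaps (interval 36.1 to 47.6%), both of 1 to 500 bp. The signal of the tandem-gap peaks ran from 16.2 to 321 with a median of 28.2, while the median over all pooled peaks was 21.0. Intervals on shares are Clopper-Pearson intervals throughout and cover counting error only. The pooled list also holds background peaks, and the authors' q-value was at most 0.05 for 36.8% of the 462 peaks, beside 13.8% of all pooled peaks. It was at most 0.05 for all 129 final summits in tandem gaps, as for all 1446 final peaks, and for 41 of the 333 weaker ones (12.3%). The weaker ones are therefore given mainly as positions and as lower signals.

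Few of the gaps held a strong peak. A final summit lay in 129 of 3526 tandem gaps, or 3.66% (interval 3.06 to 4.33%), and in 3.42% ± 0.140 (SD, n = 2) with each replicate's own strongest peaks. Over short gaps of every orientation the share was 4.95%. Short gaps between genes that diverge, which hold the start regions of both genes, had a final summit in 13.7% (interval 11.5 to 16.1%, replicates 12.1% ± 0.312 SD, n = 2). Short gaps between convergent genes, which hold 2 gene ends and no start, had one in 2.26% (interval 1.51 to 3.25%). Tandem gaps over 500 and up to 2000 bp had one in 3.35% (interval 2.80 to 3.97%), but they are longer, and per 100 kb of gap the density was 16.8 final summits in the short tandem gaps and 3.25 in the long ones. Per 100 kb, convergent gaps held 11.3 and divergent gaps 48.2, so short tandem gaps lay between these on either measure. Among the 6 nuclear chromosomes the share of tandem gaps with a final summit ran from 1.89% on X and 2.18% on V to 5.17% on I.

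Seen from the genes, a strong peak was listed more often in the window at the start of the first gene than in the gap behind it. But that window is longer than most gaps. Over all pairs the order turned in a window as long as the gap just upstream of the first gene. This shorter window leaves out the part within the gene, so length and place changed together. In gaps of 1 to 100 bp the order did not turn. The 5′ end was taken as 500 bp upstream to 200 bp downstream within the gene, and peaks in the gap were not counted there. A final summit lay at the first gene's 5′ end in 308 pairs, or 8.74%, and in the gap in 129 pairs. A peak at a 5′ end can be counted for several pairs, while a gap summit is counted in its own gap only. The places seldom went together, with 15 pairs that had a final summit in both, 293 at the 5′ end only, 114 in the gap only and 3104 in neither. Of the 308 pairs with a final summit at the 5′ end, 244 had no peak at all listed in the gap. Of the 129 pairs with a final summit in the gap, 88 had no peak listed at the 5′ end, 33 had a lower one and 8 a higher one. In a window as long as the gap just upstream of the first gene, 95 pairs had a final summit (2.69%), fewer than the 129 gaps.

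Among the 454 pairs with a peak in the gap, the gap held the higher signal in 348, of which 273 had no peak listed at the first gene's 5′ end. That count leans toward the gap because the pairs were taken for having a peak there. Over the 181 pairs with a peak in both places the gap was higher in 75 and the 5′ end in 106, and the median log2 ratio of gap to 5′ end signal was -0.16 in the pooled list, -0.17 in replicate 1 and -0.02 in replicate 2. Of these 181 pairs, the 75 with the gap higher kept that order in both replicate lists in 35 cases, and the 106 with the 5′ end higher kept theirs in 78. Where the gap held a final summit, of 121 pairs with the gap higher, 109 were higher in the gap in both replicate lists. Over all pairs with a peak in the gap, 204 of the 348 were. Both sets were taken for a gap peak in a list made from the same replicates, so these counts lean toward the gap too.

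**Figure D1:**
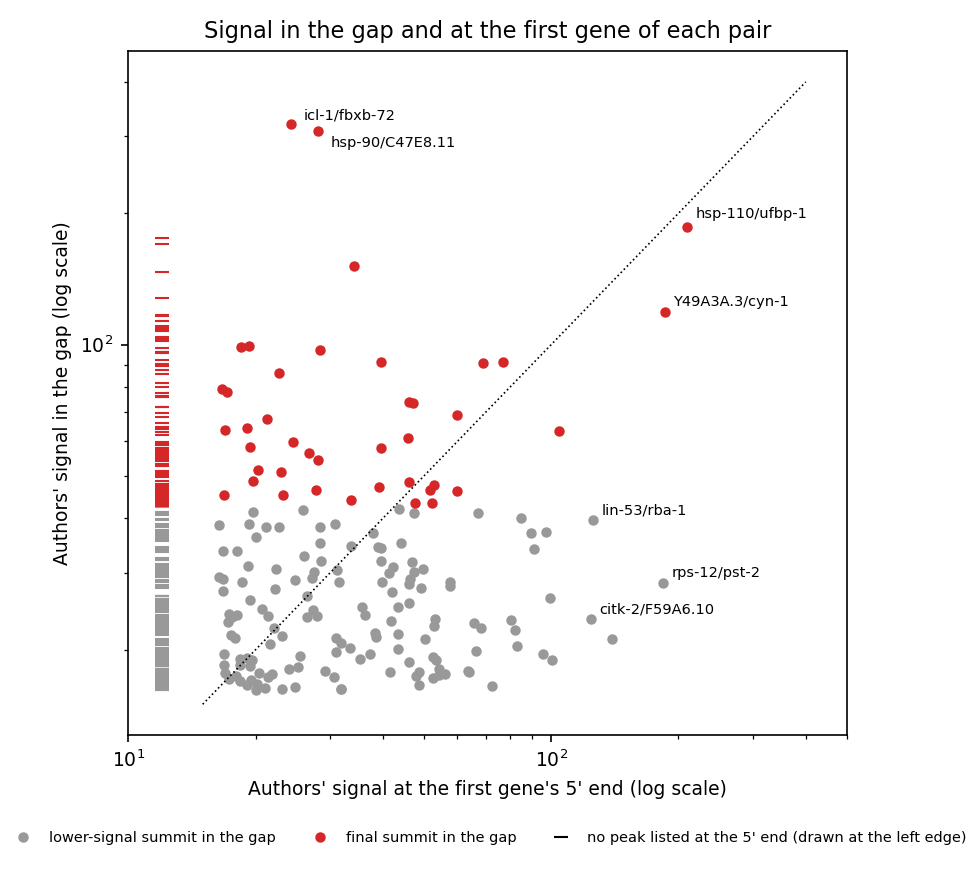
Highest authors' signal in the tandem gap (vertical, log scale) against the highest signal at the first gene's 5′ end (horizontal, log scale), both from the pooled list, 1 point for each of the 454 pairs with a peak in the gap. Red points are final summits in the gap, grey points weaker ones, dashes at the left edge are the 273 pairs with no peak listed at the 5′ end, and the dotted line marks equal signals. The red points lie mostly above the line or at the edge, while the pairs far to the right mostly have weak gap peaks.

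The shares in the gap and in the 5′ end window differed with the length of the gap, and so did the room for a summit, since the window keeps its length while the gap grows. In pairs 1 to 200 bp apart, a final summit lay at the first gene's 5′ end in 11.8% of 1867 pairs (replicates 10.6% ± 0.114 SD, n = 2) and in the gap in 1.23% (28 gaps in either replicate). In pairs 201 to 500 bp apart, these shares were 5.24% at the 5′ end (replicates 4.85% ± 0.0426 SD, n = 2) and 6.39% in the gap (replicates 5.58% ± 0.298 SD, n = 2) of 1659 pairs. By class of 100 bp, the share with a final summit in the gap was 0.605%, 1.73%, 5.5%, 7.5% and 6.21% from the shortest to the longest. At the first gene's 5′ end it was 12.1%, 11.6%, 6.17%, 5.54% and 3.81%. In the window as long as the gap just upstream of the first gene, the share was 1.69%, 1.83%, 3.50%, 4.29% and 3.41%. It was thus no lower in the longest class than in the shortest. In pairs 1 to 100 bp apart this window held a final summit in 14 pairs against 5 gaps (replicates 12 against 7 and 16 against 8). In pairs 101 to 200 bp apart the counts were close, at 19 pairs and 18 gaps. Per 100 kb, the full window at the 5′ end held 17.3, 16.6, 8.80, 7.90 and 5.43 final summits and the gap 8.53, 12.9, 22.0, 21.3 and 13.8. The densities at the 5′ end count a peak shared by several pairs for each of them. The gap densities varied between the replicates, at 11.9, 15.02, 25.3, 14.7 and 12.9 in replicate 1 and 13.6, 14.3, 16.01, 18.3 and 12.9 in replicate 2. Gaps of 201 to 300 bp were thus denser than both shorter classes in each list, by little in replicate 2, and gaps of 301 to 400 bp were no denser than those of 101 to 200 bp in replicate 1.

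The same window of 500 bp upstream to 200 bp downstream was also set at the second gene's 5′ end, leaving out summits already counted at the first gene, an addition made after the other values were seen. Since it reaches 500 bp upstream it takes in the whole gap, so it counts the gap's summits again and is no separate measure of the second gene's start. In pairs 1 to 200 bp apart it held a final summit in 3.91% (interval 3.08 to 4.89%, replicates 4.02% ± 0.227 SD, n = 2), against 11.8% at the first gene. In pairs 201 to 500 bp apart it held one in 6.75% (interval 5.59 to 8.07%, replicates 5.94% ± 0.298 SD, n = 2), beside 5.24% at the first gene. There were 112 such pairs, beside 106 with a final summit in the gap itself.

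**Figure D2:**
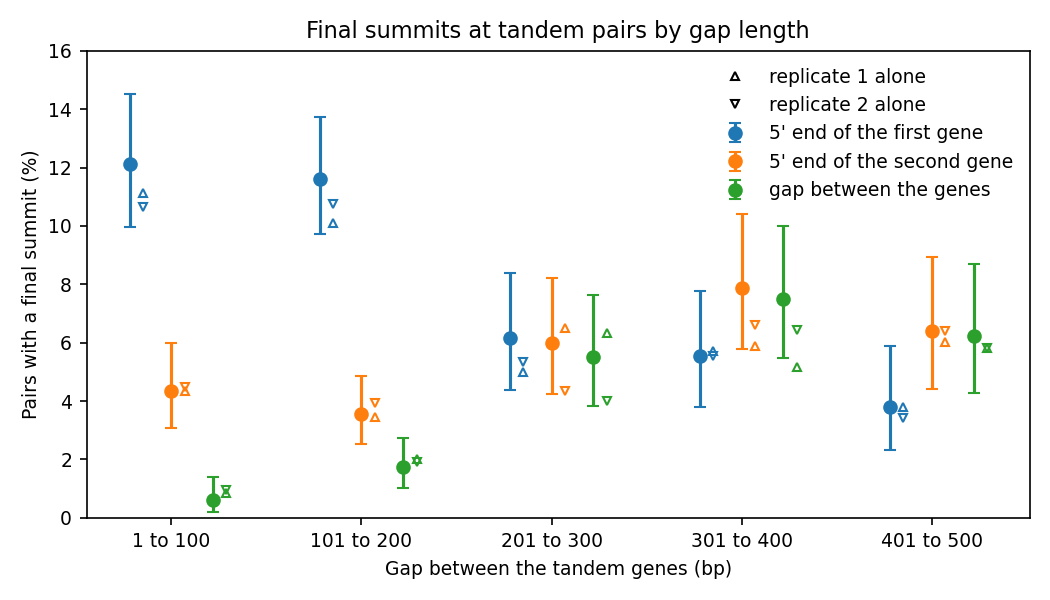
Share of tandem pairs with a final summit (vertical, percent) by length of the gap (horizontal, bp), at the first gene's 5′ end, at the second gene's 5′ end and in the gap. The window at the second gene takes in the gap, and the windows keep their length while the gap grows. Dots are the pooled list with exact 95% intervals, and open triangles pointing up and down are replicates 1 and 2. The first gene's share falls from 12.1% to 3.81% with length while the gap's share climbs from 0.605% to 7.5% and stands at 6.21% in the last class.

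The strongest gap peak lay between icl-1 and fbxb-72, which encodes an F-box protein, with a pooled signal of 321 in a gap of 379 bp and replicate signals of 102 and 219. The 5′ end of icl-1 had 24.3 in the pooled list and 9.95 and 18.0 in the replicates. The gap of 70 bp after hsp-90 followed with 309 (replicates 157 and 155), against 28.1 at the 5′ end of hsp-90 (replicates 9.76 and 14.4). In both pairs the gap stood above the 5′ end in each library, by a wide margin. The chaperone gene hsp-110 differed, with a peak of 187 that lay 10 bp past its annotated 3′ end (replicates 83.7 and 106) and a higher one of 210.1 at its 5′ end (replicates 95.7 and 114). Its peak reached back into the gene, and ufbp-1 of the UFM1 pathway began 293 bp further on.

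The 20 highest gap peaks were taken for their gap signal, which favours the gap over the 5′ end in what follows. Of these, 15 had no peak listed at the first gene's 5′ end in the pooled list, 3 had a lower one and 2 a higher one. In 9 of them no peak was listed there in any of the 3 lists. The gap between nspg-9 and dld-1 had 175 (replicates 88.7 and 90.5), and no list held a peak at the 5′ end of nspg-9. The gap between hlh-33, a bHLH transcription factor gene, and ddp-1, for a mitochondrial import chaperone, had 170.3 (replicates 83.3 and 87.1). The gap between psf-3, of the GINS replication complex, and icd-2, of the nascent polypeptide-associated complex, had 152 (replicates 89.3 and 66.8), with 34.3 at the 5′ end. In each of these 3 pairs every list had either a lower peak or none at the first gene's 5′ end. The summit ahead of dld-1 lies inside an annotated ncRNA gene, whose part in the signal was not tested. The second exception beside hsp-110 was Y49A3A.3, ahead of the cyclophilin gene cyn-1, with 119 in the gap (replicates 68.1 and 50.4) and 186 at its 5′ end (replicates 69.3 and 120.3).

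The second genes of the leading pairs included bag-1, an Hsp70 co-chaperone gene (128 in the gap after mei-2, which encodes a katanin subunit), pfd-6 of prefoldin (after F21C3.6) and dnj-9 of the DNAJ family (108 after T23B7.3). Others encode a histone H4 (his-37, 117), a cap methyltransferase (cmtr-1, 116), a ribosomal RNA processing factor (pro-1, 110.1 after the kinase gene mnk-1), an autophagy factor (epg-8, 108 after dsbn-1), a translation control factor (gcn-1, 104 after the formin-related frl-1) and a branched-chain dehydrogenase subunit (dbt-1, 103 after ZK669.5). The remaining pairs of the 20 were C34C12.2 and C34C12.8 (113), ZK550.2 and eelo-2 (147), ubxn-3 for a CDC-48 cofactor and F48A11.4 (109), and ahcy-1 for S-adenosylhomocysteine hydrolase and dpf-3 (104). Of the 20, 18 lay in gaps over 200 bp and 12 had the acceptor word ahead of the second gene. Of the same 20, 15 were nearer to the end of the first gene than to the start of the second. The first gap of a series of tandem genes, which may be a lone pair, held 19 of them. It held 104 of the 129 final summits, and 2613 of all 3526 tandem gaps were first gaps. In both replicates, 18 exceeded the first gene's 5′ end. That order was favoured beforehand, since the 20 were taken for gap signal in a list made from these replicates.

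**Figure D3:**
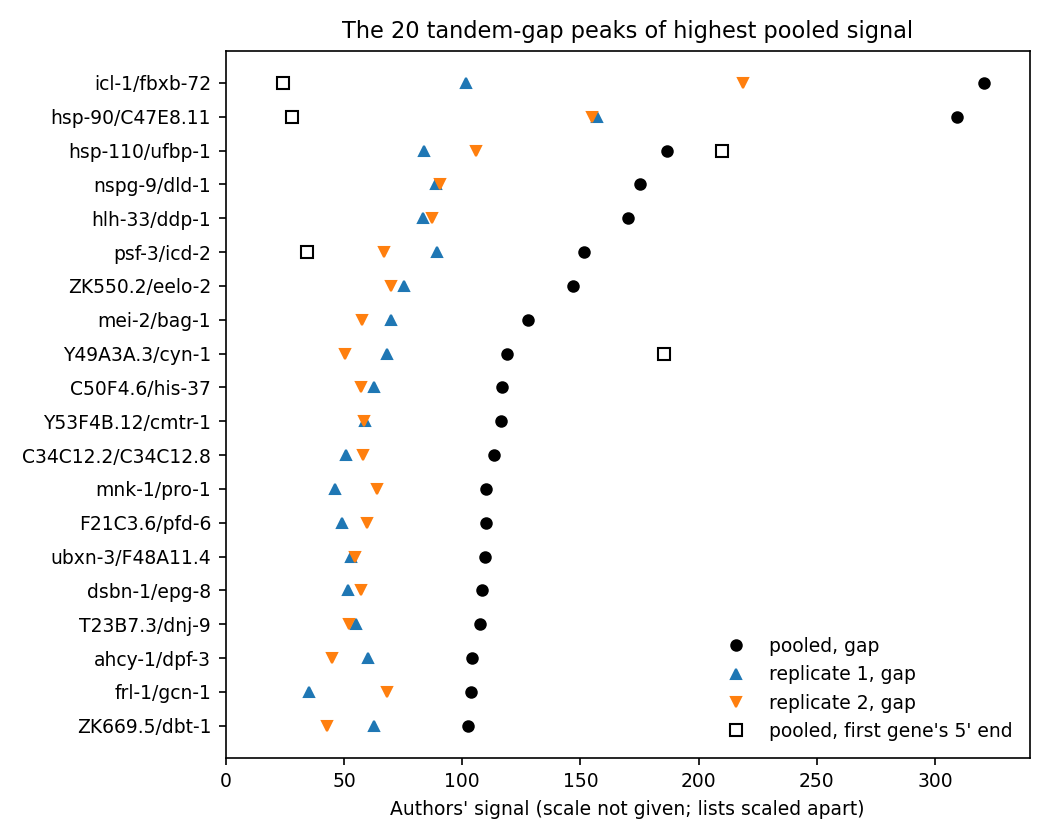
Authors' signal (horizontal) of the 20 highest gap peaks by pair (vertical), with the gap in the pooled list as dots, in replicates 1 and 2 as triangles, and the first gene's 5′ end in the pooled list as open squares. The lists are scaled apart, so a pair is read within a list. For 15 pairs no pooled peak was listed at the 5′ end, and for hsp-110 and Y49A3A.3 the 5′ end exceeds the gap.

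The opposite pattern, a strong 5′ end and a weak gap, was led by the ribosomal protein gene rps-12, with 184 at its 5′ end (replicates 95.4 and 85.2) and 28.4 in the gap before pst-2 (replicates 18.0 and 8.52). The gap printed above after citk-2 had 23.5 (replicates 11.9 and 8.54) against 124 at the 5′ end (replicates 56.9 and 62.2). The gap after F55A11.1 had 19.0 (replicates 7.94 and 9.16) against 100.3 (replicates 48.4 and 51.2). In these 3 pairs the 5′ end was higher in every list. Y57G11C.3 had 139 at its 5′ end and 21.2 in the gap before Y57G11C.43, and lin-53, which encodes an RbAp48-type histone chaperone, had 126 and 39.6 in the gap before its relative rba-1. Reads of such near relatives could be shared, and how they were assigned is not stated.

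Cytosolic ribosomal protein genes mostly had their higher peak at the 5′ end. They stood first in 31 tandem pairs, 24 of them with gaps up to 200 bp, and 29 had a peak at the 5′ end, 18 of these final, with a median of 47.3. Over all tandem pairs, 28.6% had a peak at the first gene's 5′ end and 8.74% a final one. The 5′ ends of rpl-24.1 and rps-10 had the same signal of 45.3, so 1 shared peak may be counted for both. The 5′ end of rpl-20 had the highest at 289 and rpl-15 had 209, and neither had a peak in the gap behind. In the gap, 9 of the 31 had a peak, with a median of 28.0, beside 12.9% of all tandem gaps, and 1 had a final summit, which lay between rpl-27 and egl-30, a G protein alpha subunit gene, at 97.3 against 28.5 at the 5′ end of rpl-27. The 5′ end was higher in 25 pairs and the gap in 4. The 1 final gap summit in 31 pairs (3.23%) is near the 3.66% of all tandem pairs, and is no result about these genes.

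Other gene groups, chosen by gene name, are given as counts of pairs with a list gene on either side and a final summit in the gap, to be read against 3.66% of all tandem pairs. Chaperones had one in 6 of 31 pairs, among them hsp-90, hsp-110 and pfd-6. Proteasome genes had one in 3 of 18, led by the gap of pbs-2 and tba-2 at 73.7, splicing genes in 4 of 32, led by hst-1 and snrp-3 at 98.5, and translation factors in 3 of 26, led by sys-1 and eif-3.C at 99.1. Respiratory chain genes had one in 3 of 29, led by D2021.4 and sdha-1 at 64.6, aminoacyl-tRNA synthetases in 2 of 21, led by zyg-9 and fars-3 at 57.2, nucleoporins in 2 of 10, led by npp-18 and pgm-2 at 47.2, and RNA polymerase subunits in 1 of 25, the gap of ubc-7 and rpac-19 at 48.4. Of the mRNA export genes, 1 of 6 pairs had one, in the gap ahead of nxt-1, a cofactor of the export receptor, at 77.8 (replicates 29.8 and 45.3), and the gap ahead of aly-3, a relative of aly-2, had a weak peak of 16.4. Histone genes had one in 1 of 7 pairs.

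Among the gene families below, the chemoreceptors stood at 0.365% of pairs with a final summit in the gap, beside 3.66% of all tandem pairs. The other lists have too few pairs for a count of 0 or 1 to be read as below that share. Chemoreceptor genes had 1 in 274 pairs, the gap of sre-38 and tag-281 at 63.1, F-box genes 1 in 76, which was the icl-1 gap, and nuclear hormone receptors 1 in 55, the gap of nhr-243 and emb-4 at 43.2. C-type lectins had 0 of 50 pairs and collagens 0 of 39. The mitochondrial ribosomal proteins had 0 of 54 and the vacuolar ATPase 0 of 8. At the first gene's 5′ end, 13 of these 54 pairs and 2 of these 8 held a final summit, beside 8.74% of all tandem pairs. The first gene was itself on the list in 6 of the 13 and 1 of the 2. Chemoreceptors had 1 such pair, F-box genes 3, nuclear hormone receptors 3, and C-type lectins and collagens 0. Lists of a few pairs are imprecise, and no list was tested against another.

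Within the gap, summits lay somewhat nearer to the end of the first gene than to the start of the second. The median summit was 106 bp past the first gene's 3′ end and at -136 bp from the second gene's 5′ end, and for final summits these medians were 126 bp and -165 bp. Of the 462 summits, 261 were nearer to the 3′ end (56.5%, interval 51.8 to 61.1%), and of the 129 final ones 77 were (59.7%, interval 50.7 to 68.2%). In gaps of 401 to 500 bp 68 of 103 summits were nearer to the 3′ end, and in gaps of 1 to 100 bp 19 of 43. Peaks were listed at a fixed width of 360 bp in nearly every case, so the listed peak covered the whole gap for 204 of the 462 (44.2%), and for these only the summit places the signal. A summit within 50 bp of the first gene's end was found for 102 peaks and within 50 bp of the second gene's start for 88.

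**Figure D4:**
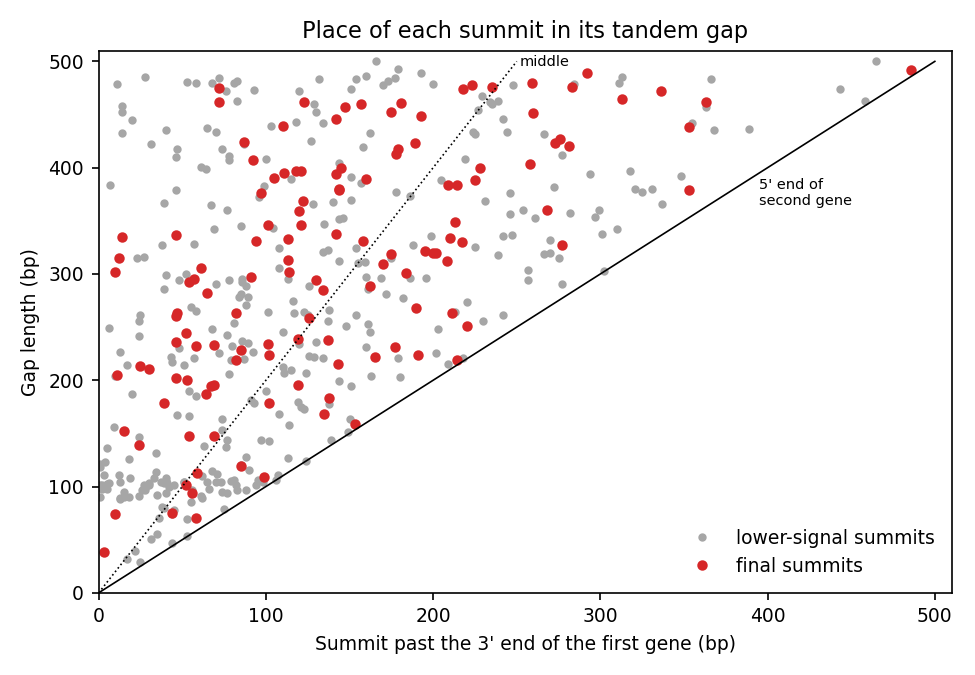
Length of the gap (vertical, bp) against the distance of the summit past the first gene's 3′ end (horizontal, bp) for the 462 peaks in the pooled list, with final summits in red and weaker ones in grey. The left edge is the end of the first gene, the solid line the start of the second gene and the dotted line the middle of the gap. Summits are spread over the whole gap, with 261 of 462 on the side of the first gene.

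The acceptor word TTNCAG in the 20 bp before the second gene was found in 23.2% of all tandem gaps of 1 to 500 bp. Of these, it was found in 42.6% of the 129 gaps with a final summit, in 37.2% of the 325 with only weaker summits and in 20.9% of the 3072 with none. Tandem gaps over 500 and up to 2000 bp were alike, with the word in 21.6% of all and in 46.8% of the 126 with a final summit. The form TTTCAG alone was in 15.2% of all tandem gaps and 31.8% of those with a final summit. For final summits the difference lay in gaps of 201 to 500 bp. A peak of any signal was listed in 36.6% of these gaps with the word and in 14.3% without it. In gaps of 1 to 200 bp these shares were 9.43% and 6.59%. At 201 to 300 bp the intervals for final summits overlapped, at 4.27 to 14.5% with the word and 2.96 to 7.02% without it. Among gaps of 201 to 500 bp, a final summit lay in 14.9% of the 363 with the word (interval 11.4 to 19.0%, replicates 13.1% ± 0.195 SD, n = 2) and in 4.01% of the 1296 without it (interval 3.01 to 5.23%, replicates 3.47% ± 0.327 SD, n = 2). Among gaps of 1 to 200 bp, it lay in 1 of 456 with the word (0.219%, interval 0.00555 to 1.22%) and in 22 of 1411 without it (1.56%, interval 0.980 to 2.35%).

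The sequences of dld-1, eelo-2 and C34C12.8 printed above are of the first kind, long gaps that end in the word and hold a final summit well ahead of it. Over all 55 final summits with the word, the median summit was at -226 bp from the second gene's 5′ end, and over the 74 without it at -132 bp, with gap lengths that differ in the same way. The first gene's 5′ end also had a final summit more often where the word lay ahead of the second gene, in 15.1% against 10.8% of gaps of 1 to 200 bp and in 9.64% against 4.01% of gaps of 201 to 500 bp. Whether these genes are expressed in L1 larvae was not tested here. The word AATAAA in the last 40 bp of the first gene, on its strand, the usual signal for 3′ end cleavage, was in 66.7% of pairs with a final summit in the gap, 46.5% with only weaker summits, 44.6% with none and 45.6% of all tandem pairs. For tandem gaps over 500 and up to 2000 bp it was in 63.5% of those with a final summit and 48.1% of all. GC content in 200 bp around the summit had a median of 37.5% for the final summits in tandem gaps and 39.5% for all final summits.

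**Figure D5:**
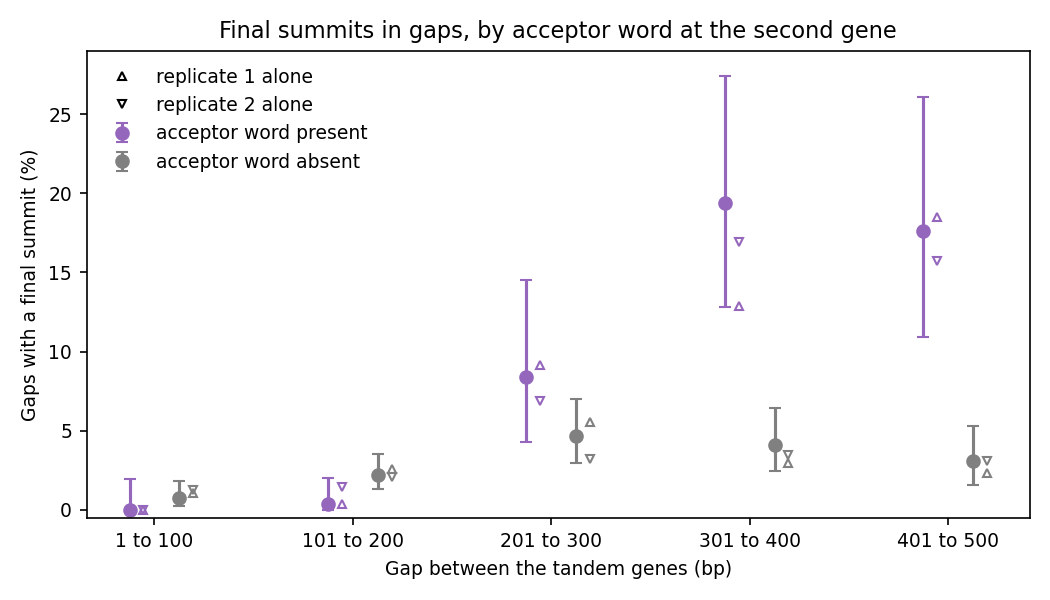
Share of tandem gaps with a final summit (vertical, percent) by gap length (horizontal, bp), for gaps with and without TTNCAG in the 20 bp before the second gene. Dots are the pooled list with exact 95% intervals, and open triangles pointing up and down are replicates 1 and 2. At 301 to 400 bp the shares are 19.4% with the word and 4.13% without it, and at 1 to 100 bp 0% and 0.780%.

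The 2 replicates recovered most of these peaks. Of the 462, 368 overlapped a peak by at least 1 bp in both replicate lists (79.7%, interval 75.7 to 83.2%), against 65.9% of all pooled peaks, and of the 129 final ones 128 did. The final list was itself thresholded on reproducibility, so the values of final peaks in this paragraph follow partly from that choice. The same share over all 1446 final peaks is not given here. The replicate summit was shifted from the pooled one by a median of 20 bp in replicate 1 and 13 bp in replicate 2, and for final peaks by 7 and 9.5 bp. In both replicates the summit stayed in the same gap for 276 of the 462 (59.7%) and for 119 of the 129 final ones (92.2%). Among each replicate's own strongest peaks, 107 of the 129 were found in replicate 1, 102 in replicate 2 and 83 in both.

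Tandem gaps joined into 2613 series of neighbouring genes, of which 1976 had only 2 genes and so no later gap, and the longest had 9. In series of 3 or more genes, the first gap had a final summit in 6.12% (interval 4.39 to 8.27%, replicates 5.49% and 5.34%), and the later gaps, which are shorter, in 2.74% (interval 1.78 to 4.02%, replicates 1.86% and 2.08%). Over series of any length the first gap had one in 3.98% (interval 3.26 to 4.80%). The series of 9 genes from sgo-1, a shugoshin gene, to rpap-3 held 2 final summits, ahead of rsp-6, which encodes an SR splicing factor, at 59.8 (replicates 22.2 and 37.0) and ahead of imp-3 at 46.1 (replicates 25.8 and 21.5), with a weaker one of 25.6 ahead of tag-322. The other 5 gaps of that series held none. In such series the peak of one gap also lies at the 5′ end of the gene that is first in the next pair, as the 59.8 ahead of rsp-6 does, and is counted at both places for different pairs. The series from hlh-33 to smi-1 and from Y53F4B.12 to trip-4, each of 4 genes, held 1 final summit each, in their first gaps.

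Short gaps with a final summit were few enough to be examined singly, and 23 of the 129 were 200 bp or shorter. Besides hsp-90, pfd-6 and pafo-1, they included sec-24.1, of the COPII vesicle coat, with 91.3 in the gap (replicates 47.6 and 42.7) and 76.8 at its 5′ end (replicates 28.4 and 48.2), and gpd-2 and gpd-3, a pair of GAPDH genes. In that gap of 101 bp the signal was 43.3 (replicates 21.2 and 26.2), close to the 47.6 at the 5′ end of gpd-2. These genes are nearly identical copies, so the assignment of reads between them is uncertain. The pair was named after its values were seen. Only 1 of the 23 gaps, between F55F10.3 and F55F10.1, had the acceptor word.

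Non-coding genes lay in 117 of the tandem gaps, and 11 of these had a final summit (9.40%), against 3.46% of the 3409 gaps without one. All 6 tandem gaps with a snoRNA gene held a peak, 4 of them final, among them the gap of Y53F4B.12 and cmtr-1 at 116 (replicates 59.1 and 58.4), and a snRNA gene lay under the summit between spe-46 and W06D4.3 at 71.99 (replicates 47.6 and 26.3). The part of these genes in the signal was not tested. Gaps with a non-coding gene held 27 of the 462 peaks, and the summit lay inside such a gene for 9. Another coding gene's 5′ end lay within 500 bp of the summit for 3 of the 462. At the limit of the definition, the peaks just inside were those of W03H9.2 and cacn-1, in a gap of 500 bp at 19.8 and 16.95, and of ZK622.4 and ZK622.1, at 493 bp and 23.3. Just outside lay mans-2 and rpt-1 at 503 bp with a final summit of 47.8, ZK632.4 and riok-3 at 503 bp with 23.2, and aat-4 and srv-31 at 505 bp with 16.8.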

How the data were processed

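The deposited peak lists hold a signal for each peak, the authors' own value on a scale that no source used here states, and a −log10 q-value that the authors deposited beside it. Per the labels and the deposited description files, the authors called peaks against a control on ce11 in each replicate and in both together, and kept a final list thresholded on reproducibility (IDR). Of the aligner, caller, versions, IDR threshold and depth the sources used here say nothing, so the precision of single peaks is unknown. The control and the ce10 lists were not used here.

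Summits were placed among 19973 protein-coding genes of Ensembl release 115. Gaps, windows and words were computed with Python 3.11.15, pandas 2.3.3 and scipy 1.17.1, checked on simulated data. The text names pairs by rule: the 20 highest gap peaks, the 5 with the largest excess of the 5′ end, up to 3 of each of 18 gene lists, 3 series of genes and those nearest the 500 bp limit. The pairs of pafo-1, sec-24.1, gpd-2, F55F10.3, spe-46, rpl-20 and rpl-15 were named after their values were seen. Words, lists and peaks were chosen with earlier results of these data known. Alternatives changed gap lengths, windows, thresholds, overlaps and replicates. No p-value was computed, and the labels say no more of the replicates than that they are biological.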

Additional observations from a re-analysis of the deposited data

How the results depend on the processing

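Of 42 recomputed values, 24 moved by more than the replicate spread, the interval or, for the number of summits, 1.5 times. With gaps of 1 to 300 bp there were 251 summits, 22.3% of them final, 2.27% of gaps had a final summit, the median was -88 bp from the second gene's 5′ end and the gap was higher in 72.7% of pairs with a gap peak (76.7% as reported). With gaps up to 1000 bp there were 850 summits, a median of -219 bp and 82.6% of pairs. Gaps free of any gene gave 3.46% with a final summit. The upper 50% of the final list gave 1.96%, and the upper 50% of the pooled list 81.9% of pairs and a median signal of 36.2. The share of pairs with the gap higher was 72.5% with a 5′ window of 1000 bp upstream, 85.0% with one of 250 bp upstream and 100 bp downstream, and 41.4% without pairs that lack a 5′ peak, where the majority turns to the 5′ end. Overlap in both replicates was 62.1% with summits within 100 bp and 73.8% with an overlap of 50%. With 1 replicate at a time, 3.32 to 3.52% of gaps had a final summit, the median was -136.5 to -129.5 bp, and the gap was higher in 73.8 to 76.98%. Chosen after seeing the data, a 5′ window as long as the gap gave 90.1%, final summits alone 28.7%, again a majority for the 5′ end, and final summits' median position -165 bp. No paired analysis was possible because both replicates form 1 group.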
